A study of Homo sapiens with 6 samples.

Results

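The metallothionein and zinc response genes are 8 of the 62754 genes in the count table: MT1E, MT1F, MT1G, MT1M, MT1X and MT2A, which encode metallothioneins, MTF1 and SLC30A1. They were chosen by symbol, and each was found under 1 Ensembl identifier. The study sequenced poly(A) RNA of HEK293 cells, a human embryonic kidney line (the labels also name HEK293T), as 3 control and 3 FAM60A-knockout libraries. FAM60A is part of Sin3/HDAC, a complex that removes acetyl groups from histones. To knock it out, cells were transfected with a CRISPR/Cas9 vector and several guides to 3 regions of the gene, and selected with puromycin as a pool, not as a single clone. Control cells carry the label control and no further description. Both groups grew in DMEM with fetal bovine serum and Glutamax. The sources do not say whether replicates came from separate cultures, so p-values measure the spread between these libraries, which may be technical.

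Metallothioneins are small cysteine-rich proteins that bind zinc, copper and cadmium and buffer the free metal in the cytosol. When free zinc rises, it binds MTF1 (metal regulatory transcription factor 1), which then enters the nucleus and binds metal response elements in promoters. Its best known targets are the metallothionein genes and SLC30A1, which encodes ZnT1, the zinc exporter of the plasma membrane. ZnT (SLC30) proteins otherwise move zinc out of the cytosol into vesicles and organelles, and ZIP (SLC39) proteins move it into the cytosol.

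The coding sequences of the metallothionein genes with substantial counts are much alike. They are given 5′ to 3′ from the canonical GENCODE transcripts on GRCh37, with cysteine codons in capitals.
MT2A: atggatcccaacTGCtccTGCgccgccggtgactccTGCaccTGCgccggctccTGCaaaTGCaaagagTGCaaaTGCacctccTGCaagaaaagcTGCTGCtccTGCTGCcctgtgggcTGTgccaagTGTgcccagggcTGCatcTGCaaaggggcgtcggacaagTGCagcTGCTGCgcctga
MT1X: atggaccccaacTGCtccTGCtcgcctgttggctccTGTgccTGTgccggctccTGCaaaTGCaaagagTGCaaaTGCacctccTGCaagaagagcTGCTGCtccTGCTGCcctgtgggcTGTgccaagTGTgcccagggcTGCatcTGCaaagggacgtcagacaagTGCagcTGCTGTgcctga
MT1F: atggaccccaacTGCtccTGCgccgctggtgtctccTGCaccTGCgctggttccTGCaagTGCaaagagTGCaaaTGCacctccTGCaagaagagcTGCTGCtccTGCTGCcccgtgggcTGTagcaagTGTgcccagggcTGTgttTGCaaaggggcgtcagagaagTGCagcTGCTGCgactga
Each coding sequence has 186 bases and encodes 61 residues, of which 20 are cysteines (32.8%). MT1X and MT2A were identical at 172 of 186 positions (92.5%), MT1F and MT2A at 170 (91.4%), and MT1F and MT1X at 165 (88.7%). Over all annotated transcripts of each gene pooled, 3.31% of the 31-base words of MT1F also occurred in another gene. The share was 12.7% for MT2A, 20.3% for MT1X and 44.4% for MT1M. MT1F had 1904 such words, although its canonical transcript has 425 bases, so these are not the shares within canonical transcripts. No 150-base stretch of MT1F, MT2A, MT1E, MT1G or MT1M was found whole in another gene, and 8.78% of those of MT1X were. How the counting split shared reads is not given in the sources used here, so levels of single metallothionein genes are uncertain to that extent, and their sum is given beside them.

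The promoters of the MTF1 targets are shown because they hold the letters that MTF1 is known to read. These are the 250 bases before the RefSeq gene start on GRCh38.p14, 5′ to 3′ on the strand of the gene, with matches to TGCACNC or TGCGCNC (the core of the metal response element, searched on both strands) in capitals. The reference tables gave a promoter for MT2A, MT1X, SLC30A1 and MTF1, 4 of the 8 genes.
MT2A, chr16:56608334-56608583, plus strand: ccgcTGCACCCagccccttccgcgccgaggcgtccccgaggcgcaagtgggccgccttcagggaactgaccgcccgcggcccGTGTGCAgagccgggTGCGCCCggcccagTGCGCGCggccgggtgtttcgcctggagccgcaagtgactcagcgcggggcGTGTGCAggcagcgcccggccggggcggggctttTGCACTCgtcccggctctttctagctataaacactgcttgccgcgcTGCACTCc
MT1X, chr16:56682220-56682469, plus strand: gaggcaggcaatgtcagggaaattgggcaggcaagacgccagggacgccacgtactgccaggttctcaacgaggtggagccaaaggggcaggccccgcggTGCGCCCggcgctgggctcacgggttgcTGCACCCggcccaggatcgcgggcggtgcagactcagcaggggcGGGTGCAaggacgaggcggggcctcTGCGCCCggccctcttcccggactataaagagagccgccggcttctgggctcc
SLC30A1, chr1:211579162-211579411, minus strand: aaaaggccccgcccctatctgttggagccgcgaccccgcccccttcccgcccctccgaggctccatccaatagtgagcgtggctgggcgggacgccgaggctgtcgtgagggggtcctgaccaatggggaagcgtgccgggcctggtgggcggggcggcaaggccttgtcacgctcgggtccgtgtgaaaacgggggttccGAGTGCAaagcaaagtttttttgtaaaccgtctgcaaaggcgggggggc
The MT2A window held 7 matches, 5 of TGCACNC and 2 of TGCGCNC. The MT1X window held 4, 2 of each, and that of SLC30A1 held 1, of TGCACNC. MTF1 held none, which says only that these letters are not in that window. Outside the 8 genes, the window of MT1H held 8 matches, and MT1H had 0 counts in every library. MT1B and MT4 held 3 each and had at most 2 counts in any library. Of 35116 RefSeq windows of the same length, 24.8% held at least 1 match (9.87% TGCACNC and 16.8% TGCGCNC), 0.370% held at least 4 and 0.0313% at least 7. A match is a description of the letters and not a measured binding site.

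On GRCh37, MT2A lies at chr16:56642496-56643409, MT1E at chr16:56659387-56661024, MT1M at chr16:56666571-56667893, MT1F at chr16:56691643-56694610 and MT1X at chr16:56716382-56718108, all on the plus strand, and MT1G at chr16:56700642-56701977 on the minus strand. With the other metallothionein genes and pseudogenes of this chromosome, 17 features in all, they span 119 kb. MTF1 (chr1:38275246-38325264) and SLC30A1 (chr1:211744910-211752503) are both on the minus strand of chromosome 1.

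Libraries held 88361827 to 93346824 counts. FAM60A, listed as SINHCAF, had 11028, 10165 and 12792 counts in control and 5684, 5793 and 5449 in knockout libraries, a log2 fold change of -0.85 ± 0.11 (SE) with an adjusted p of 0.00863 in edgeR's quasi-likelihood test, and -0.78 without control replicate 3 (adjusted p = 7.73e-09). All 8 HEK293 markers had at least 10 counts in every library. Their summed level was 924 to 1706 CPM (counts scaled to library size, here with TMM factors) in control libraries, lowest in control replicate 3. In knockout libraries it was 740 to 878 CPM. With all libraries, 3 of the 8 were called lower (37.5%, against 16.6% of all genes tested). Without control replicate 3, 6 were called lower and 0 higher (75.0%, against 65.6%). Of 7 markers of other cell types, 6 were in the table, and PTPRC, ALB and HBB, which mark leukocytes, hepatocytes and erythroid cells, had at most 10 counts everywhere. Of the 3 that were tested, all fibroblast or matrix genes, 1 was called higher and 1 lower (66.7%, against 16.6% of all genes tested). Without control replicate 3, 2 were called higher and 1 lower (100%, against 65.6%). DCN had 0, 1 and 1 counts in control and 30, 33 and 33 in knockout libraries (adjusted p = 0.00373, edgeR), COL1A1 had a log2 fold change of -0.66 (adjusted p = 0.0361) and COL3A1 of 0.20 (adjusted p = 0.886). The sum over the list was 23.1 to 26.9 CPM in control libraries, lowest in control replicate 3, and 15.9 to 18.2 CPM in knockout libraries. The part of these differences in the results on metal genes was not tested. Control replicate 3 stood apart from replicates 1 and 2: of 20992 genes tested, 12364 (58.9%) were nearer in it to the knockout mean than to the other controls. The members, the metallothionein sum and the counts of each gene list are therefore given with and without it. In bulk RNA, fewer cells expressing a gene and less RNA per cell cannot be told apart.

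None of the 8 genes was called in FAM60A-knockout cells when all 6 libraries were compared. MT2A had the most counts of the metallothionein genes in every library, followed by MT1X and MT1F, and MT1E, MT1G and MT1M were at or near 0. The level of MTF1 overlapped between groups, as did those of SLC30A1, MT2A, MT1X and MT1F. By edgeR's quasi-likelihood test at an adjusted p of at most 0.05, 0 of the 5 genes that passed the filter on low counts were called, against 16.6% of all genes tested, or 7.06% where the log2 fold change also had to reach 1 in either direction. The count was also 0 by DESeq2 and by limma-voom. At an unadjusted p under 0.05, edgeR and DESeq2 gave 0 of the 5 and limma-voom gave 1. Without control replicate 3, 3 of the 5 were called (MT1F higher, SLC30A1 and MT2A lower), against 65.6% of all genes tested in that fit.

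**Figure D1:**
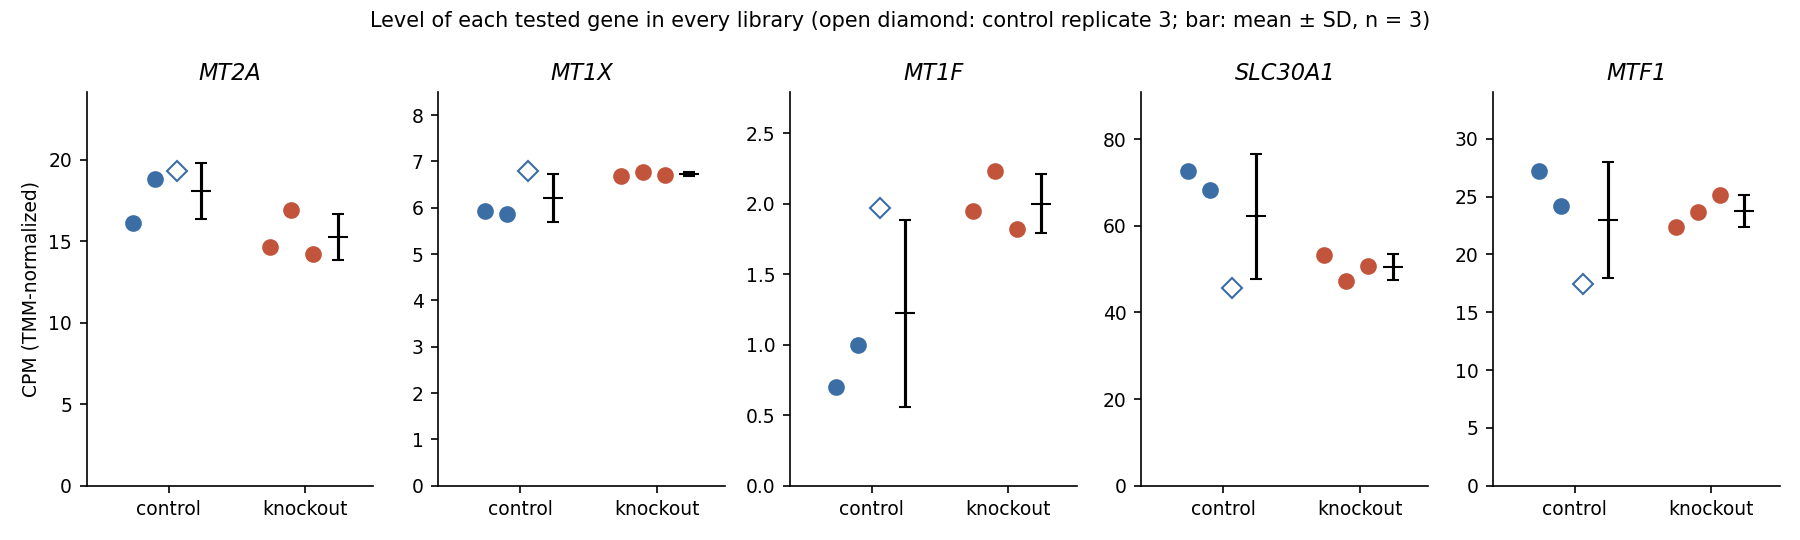
Level of the 5 tested genes in each library, in TMM-normalized CPM on linear axes from 0. Points are libraries, the open diamond is control replicate 3, and the bar gives the group mean and SD (n = 3). Control replicate 3 lies among or beside the knockout libraries for MT1F, MT1X and SLC30A1, and below every other library for MTF1.

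MT2A, the ubiquitous and most strongly expressed human metallothionein, had 1569, 1806 and 1866 counts in control and 1233, 1481 and 1257 counts in knockout libraries, here and below in the order of replicates 1, 2 and 3. These correspond to 16.1, 18.8 and 19.3 CPM in control and 14.6, 16.9 and 14.2 CPM in knockout libraries. Knockout replicate 2 exceeded control replicate 1, so the groups overlapped. The log2 fold change was -0.25 ± 0.13 (SE, 95% interval -0.57 to 0.075), with an adjusted p of 0.239 (edgeR). Without control replicate 3 it was -0.23 with an adjusted p of 0.0370, and the adjusted p over all 12 alternatives ran from 0.0370 to 0.537.

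MT1X had 577, 564 and 657 counts in control and 563, 594 and 593 counts in knockout libraries, or 5.94, 5.87 and 6.80 CPM against 6.68, 6.77 and 6.71 CPM. Control replicate 3 was the highest of the 6 libraries. The knockout libraries spread over less than 0.1 CPM and lay between that library and the other controls. The log2 fold change was 0.12 ± 0.14 (SE, 95% interval -0.23 to 0.46), with an adjusted p of 0.605 (edgeR), and it was 0.16 with an adjusted p of 0.163 without control replicate 3.

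MT1F had 68, 96 and 190 counts in control and 164, 196 and 161 counts in knockout libraries, or 0.699, 0.999 and 1.97 CPM against 1.95, 2.23 and 1.82 CPM. Control replicates 1 and 2 were the lowest of the 6 libraries. Control replicate 3 was 2.32 times their mean and within the knockout range. With all libraries the log2 fold change was 0.71 ± 0.39 (SE, 95% interval -0.22 to 1.65), with an adjusted p of 0.242 (edgeR). Without control replicate 3 it was 1.20 (95% interval 0.84 to 1.57), with an adjusted p of 4.27e-06, and over all 12 alternatives the adjusted p ran from 4.27e-06 to 0.473. A single library thus decided the call of MT1F.

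MT1E, MT1G and MT1M did not pass the filter. MT1E and MT1M each had 1 count, in knockout replicate 2, and 0 in the other libraries. MT1G had 1 count in control replicate 3, 1 in knockout replicate 3 and 0 elsewhere. A count of 0 allows a level of up to 0.0309 to 0.0356 CPM (3 counts, counting error only), depending on the library. Expression of these genes was not detectable at this depth in either group.

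The summed metallothionein level, which does not depend on how the counted reads were split among copies, overlapped between the groups. Any shared reads that the counting left out would be missing from the sum too. Over 22 metallothionein genes and pseudogenes, the sum was 23.0, 25.9 and 28.5 CPM in control and 23.5, 26.2 and 23.1 CPM in knockout libraries. The highest library was control replicate 3 and the lowest control replicate 1. The means were 25.8 ± 2.74 and 24.2 ± 1.71 CPM (SD, n = 3), with p = 0.7 in a two-sided exact permutation test whose smallest possible p is 0.1. Fitted as 1 feature, the sum had a log2 fold change of -0.090 (95% interval -0.38 to 0.20, adjusted p = 0.635, edgeR), an interval that runs from 0.767-fold to 1.15-fold. Without control replicate 3 it was -0.045 (adjusted p = 0.661), and over 13 alternatives the adjusted p ran from 0.274 to 0.887.

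**Figure D2:**
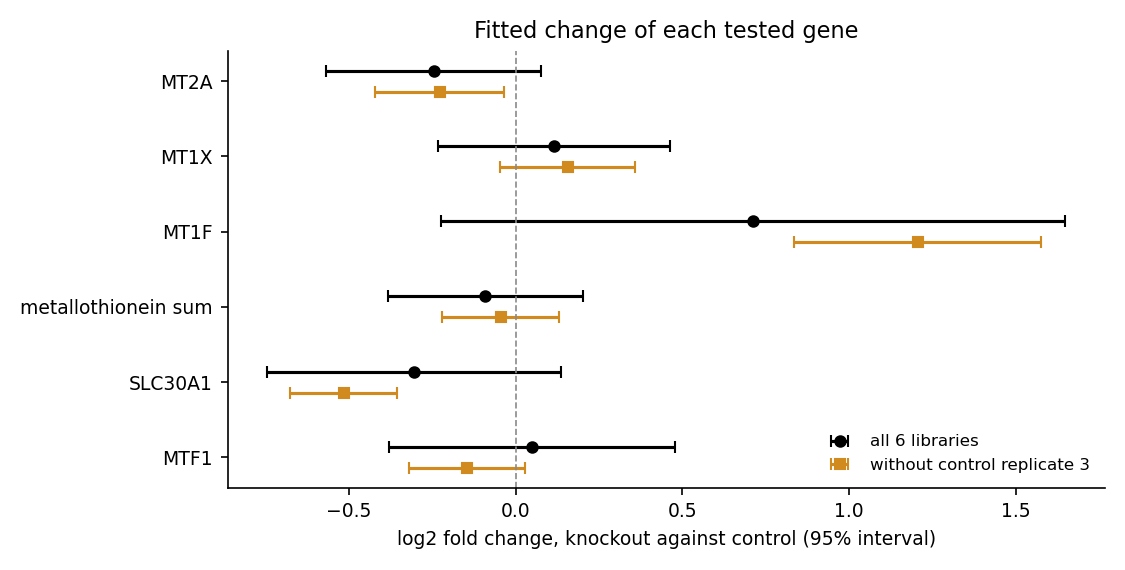
Log2 fold change of knockout against control for the 5 tested genes and the metallothionein sum, with 95% intervals from edgeR. Circles use all 6 libraries, for which every interval includes 0, and squares leave out control replicate 3, where MT1F, SLC30A1 and MT2A have intervals that exclude 0.

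The makeup of that sum separated the groups: knockout libraries held a smaller share of MT2A and larger shares of MT1F and MT1X than control libraries. These shares were looked at after the values were seen. MT2A, MT1X and MT1F together made up 98.6% to 99.2% of metallothionein counts in every library. The MT2A share was 70.2%, 72.5% and 67.8% in control and 62.4%, 64.4% and 61.7% in knockout libraries. The groups did not overlap, and the nearest pair was control replicate 3 (95% Wilson interval 66.1% to 69.5%) and knockout replicate 2 (62.4% to 66.4%). The MT1F share was 3.04%, 3.85% and 6.91% in control and 8.30%, 8.53% and 7.91% in knockout libraries. Again the groups did not overlap, and the nearest pair was control replicate 3 (6.02% to 7.92%) and knockout replicate 3 (6.81% to 9.16%). In both shares the intervals of the nearest pair overlapped. These intervals treat reads as independent molecules and cover counting error only, not the spread between libraries. The MT1X share was 25.8%, 22.6% and 23.9% against 28.5%, 25.8% and 29.1%, and control replicate 1 and knockout replicate 2 were level. Each share gave p = 0.1 in a two-sided exact permutation test, the smallest p that 3 libraries against 3 allow, so none could pass 0.05. Shares of 1 sum are not independent of each other. For comparison, the CPM of the groups did not overlap in 41.6% of all genes tested, and in 75.5% when control replicate 3 was left out. Those values are for the CPM of single genes, and no such background was computed for shares of a sum.

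**Figure D3:**
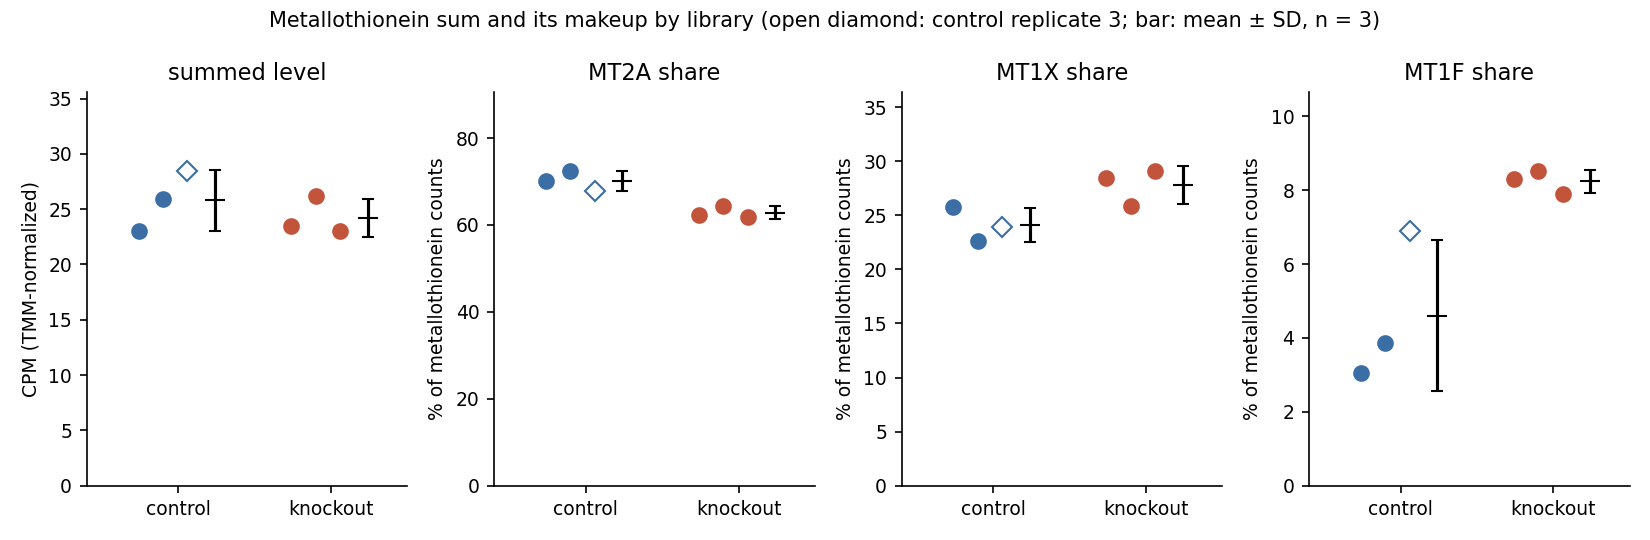
Summed metallothionein level in TMM-normalized CPM and the share of metallothionein counts (%) held by MT2A, MT1X and MT1F in each library, with group mean and SD (n = 3). The sum overlaps between groups, the MT2A shares of knockout libraries (61.7% to 64.4%) lie below those of control libraries (67.8% to 72.5%), and the open diamond marks control replicate 3.

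Metallothioneins outside the 6 listed added little. Of the 22 features, 15 had at most 3 counts in every library, the listed MT1E, MT1G and MT1M among them, and 8 had none in any. The pseudogenes reached at most 13 counts. MT3, the brain-enriched metallothionein also called growth inhibitory factor, had 7, 4 and 14 counts in control libraries and 0 in each knockout library, and was singled out after its values were seen. Its control mean of 0.0862 ± 0.0531 CPM (SD, n = 3) was 2.49 times the level that 3 counts would give in knockout libraries. This ratio leaves out the error of the control mean. With control replicates 1 and 2 alone, at 0.0568 CPM, the ratio is 1.64. MT3 did not pass the filter, and without a filter edgeR gave an adjusted p of 0.0429.

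MTF1, the zinc sensor, had 2648, 2324 and 1683 counts in control and 1885, 2080 and 2223 counts in knockout libraries, or 27.2, 24.2 and 17.4 CPM against 22.4, 23.7 and 25.2 CPM. Control replicate 1 was the highest library and control replicate 3 the lowest, so the knockout range lay inside the control range. The log2 fold change was 0.050 ± 0.18 (SE, 95% interval -0.38 to 0.48), with an adjusted p of 0.868 (edgeR). Its sign depended on processing: it was -0.15 without control replicate 3 (adjusted p = 0.134) and -0.060 where TMM was dropped for plain library size (adjusted p = 0.838), and the adjusted p ran from 0.134 to 0.972 over 12 alternatives.

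SLC30A1, the zinc exporter, had 7066, 6549 and 4411 counts in control and 4478, 4141 and 4476 counts in knockout libraries. In CPM these were 72.7, 68.2 and 45.7 against 53.2, 47.2 and 50.7. Control replicates 1 and 2 lay above every knockout library and control replicate 3 lay below them all. The log2 fold change was -0.30 ± 0.18 (SE, 95% interval -0.74 to 0.13), with an adjusted p of 0.283 (edgeR). Without control replicate 3 it was -0.52 (95% interval -0.68 to -0.36, 0.700-fold), with an adjusted p of 5.03e-06, and over 12 alternatives the adjusted p ran from 5.03e-06 to 0.538. The call of SLC30A1, like that of MT1F, rested on whether 1 control library was included, and without it MT1F and SLC30A1 moved in opposite directions.

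Levels of different genes were compared per kilobase, as CPM divided by gene length, in control libraries. With the canonical transcript as length, MT2A stood at 45.1 ± 4.25, MT1X at 15.4 ± 1.28, SLC30A1 at 10.5 ± 2.46, MTF1 at 2.89 ± 0.633 and MT1F at 2.87 ± 1.56 (SD, n = 3). MTF1 and MT1F overlapped over libraries, and each of the other neighbours in this order was separate. With the union of all annotated exons as length, which for MT2A and MT1X covers the introns too, SLC30A1 (10.5 ± 2.46) stood above MT1X (3.59 ± 0.300), and MT1X overlapped with MTF1 (2.87 ± 0.629). MT2A was highest and MT1F lowest by this length, at 19.8 ± 1.86 and 0.660 ± 0.358. The order of MT1X and SLC30A1 therefore depends on the gene model.

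The 14669 tested genes that averaged 100 counts or more were ranked by the Pearson correlation of log2 CPM with a member over the 6 libraries, as a description. The patterns most like MT2A were those of SLC25A39 (r = 0.992), RNF130 (0.992) and ERI3 (0.990). The patterns nearest to MTF1 were those of GOLGA3 (0.995) and ASAP1 (0.992). For SLC30A1 they were SP3 (0.999), MTRF1L (0.997) and RASEF (0.997). The libraries share their groups and control replicate 3, and of the genes named here 1, RNF130, stayed among the nearest 3 when that library was left out.

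Some of the other zinc transporters did pass the test. Of 8 ZnT genes tested, SLC30A4 and SLC30A5, which load vesicles and the secretory pathway with zinc, rose and SLC30A2, another vesicular zinc transporter, fell. Of 13 ZIP genes tested, SLC39A10 and SLC39A8, importers at the plasma membrane, and SLC39A13, which releases zinc from intracellular stores, rose and SLC39A3 fell. That is 7 of 21 transporters, 5 higher and 2 lower (33.3%, against 16.6% of all genes), with a median log2 fold change of 0.34 against -0.0081 over all genes tested. Leaving out control replicate 3 gave 17 of the 21 called, 12 higher and 5 lower (81.0%, against 65.6% of all genes). The lists were chosen with earlier results known, so these counts are a description.

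SLC30A4 was at 6.86, 6.86 and 10.3 CPM in control and 18.3, 16.4 and 17.6 CPM in knockout libraries, a log2 fold change of 1.12 (adjusted p = 0.0171, edgeR). SLC30A5 was at 89.8, 88.5 and 77.9 CPM in control and 136, 123 and 125 CPM in knockout libraries, a log2 fold change of 0.59 (adjusted p = 0.0150). In both genes every knockout library lay above every control library, and in 41.6% of all genes tested the groups did not overlap in CPM. SLC30A2 was scarce, at 0.710, 0.520 and 0.269 CPM in control and 0.119, 0.125 and 0.0340 CPM in knockout libraries, a log2 fold change of -2.42 (adjusted p = 0.0348, edgeR).

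SLC39A10 was at 95.5, 84.7 and 78.4 CPM in control and 171, 144 and 166 CPM in knockout libraries, a log2 fold change of 0.89 (adjusted p = 0.00871, edgeR). SLC39A8, which also carries manganese and cadmium, was at 56.2, 57.0 and 61.2 CPM in control and 114, 102 and 100.5 CPM in knockout libraries, a log2 fold change of 0.86 (adjusted p = 0.00556). Control replicate 3 sided with the other controls in both. SLC39A13 had a log2 fold change of 0.42 (adjusted p = 0.0431) and SLC39A3 of -0.75 (adjusted p = 0.0176). With 1 library left out, the adjusted p of these 7 transporters reached 0.0534 to 0.164, with every direction kept.

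**Figure D4:**
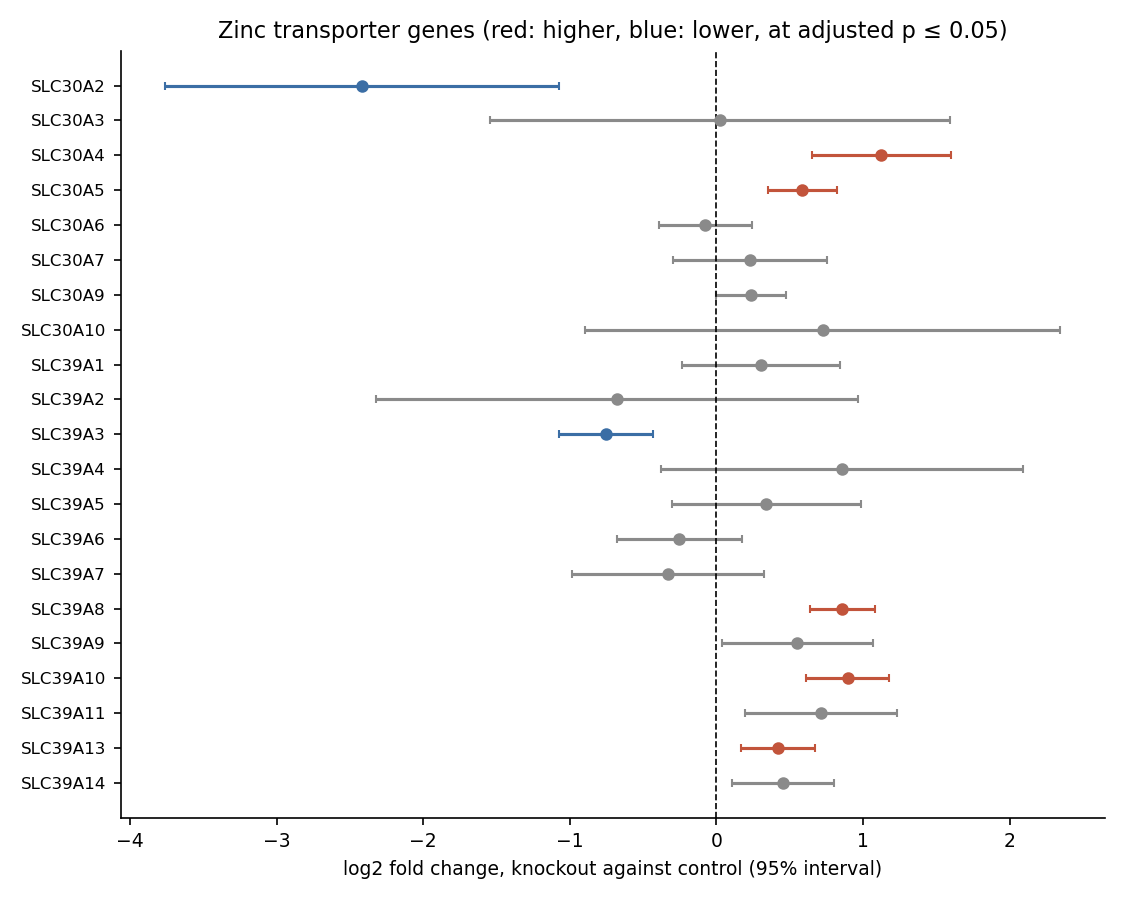
Log2 fold change of knockout against control for the 21 tested ZnT (SLC30) and ZIP (SLC39) genes, with 95% intervals from edgeR on all 6 libraries. Red marks the 5 genes higher and blue the 2 genes lower at an adjusted p of at most 0.05, and grey marks genes that were not called.

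Copper, stress and hormone lists were examined because metallothionein genes also respond to copper, cell stress and glucocorticoids. Of 11 copper genes tested, ATP7A, the copper-transporting ATPase, rose (log2 fold change 0.84, adjusted p = 0.0275), as did SOD1, the copper-zinc superoxide dismutase (0.57, adjusted p = 0.0190), and 0 fell (18.2%, against 16.6% of all genes). Of 12 heat shock and metal stress genes tested, 4 rose and 1 fell (41.7%, against 16.6%). The largest rises among the called genes were those of HSPA1B, an inducible HSP70 whose reads may be shared with its near-identical copy HSPA1A (1.16, adjusted p = 0.00370), HSPH1, an HSP110 chaperone (0.99, adjusted p = 0.0358), and HSP90AA1, the inducible HSP90 (0.88, adjusted p = 0.0151). HSPA1A itself had a larger log2 fold change, 1.95, and was not called (adjusted p = 0.0695). HSP90AA1 lost its call with limma-voom and quantile normalization, at 0.24 (adjusted p = 0.159). HSPB1, the small heat shock protein HSP27, fell (-1.47, adjusted p = 0.00632). Of 10 glucocorticoid response genes tested, NFKBIA, which encodes the NF-kappaB inhibitor and is also an NF-kappaB target, rose (2.72, adjusted p = 0.00370), and the other 9 were not called (10.0%, against 16.6%). With control replicate 3 left out, the counts called were 8 of 11 copper genes (6 higher, 2 lower), 12 of 12 heat shock and metal stress genes (9 higher, 3 lower) and 9 of 10 glucocorticoid response genes (3 higher, 6 lower), against 65.6% of all genes. Among the latter, TSC22D3 (GILZ, a classical glucocorticoid target), was named after its values were seen. It was at 46.5, 50.6 and 622 CPM in control and 418, 436 and 371 CPM in knockout libraries, a log2 fold change of 0.77 with all libraries (adjusted p = 0.620, edgeR) and 3.04 without control replicate 3 (adjusted p = 1.04e-16). With all libraries, the median log2 fold changes of the 3 lists were 0.21, 0.74 and -0.072. Cell type markers aside, 18 of the named genes were called in the edgeR fit, FAM60A included. Of these, HSPA1B and NFKBIA were called whichever library was left out, and all 18 kept their direction.

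Of 8 tested neighbours of the metallothionein cluster, 3 fell, 0 rose and 5 were not called (37.5% called, against 16.6% of all genes), with a median log2 fold change of -0.48. When control replicate 3 was left out, 5 fell and 1, NLRC5, rose (0.87, adjusted p = 3.39e-08; 75.0% called, against 65.6%). The nearest tested neighbour, BBS2, a Bardet-Biedl syndrome gene, was not called with all libraries (-0.52, adjusted p = 0.136). NUP93, a nuclear pore scaffold gene whose start lies 122 kb beyond that of MT2A, went from 123, 133 and 121 CPM in control to 74.7, 88.2 and 83.2 CPM in knockout libraries (log2 fold change -0.61, adjusted p = 0.0139, edgeR). NUDT21, which encodes a subunit of an mRNA cleavage factor, and OGFOD1, a prolyl hydroxylase gene that acts on a ribosomal protein, start 156 kb and 157 kb before MT2A. Their log2 fold changes were -0.50 (adjusted p = 0.0213) and -0.46 (adjusted p = 0.0224). No test compared the neighbours with the metallothionein genes, and with 1 library left out the adjusted p of the 3 genes reached 0.0903 to 0.128.

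**Figure D5:**
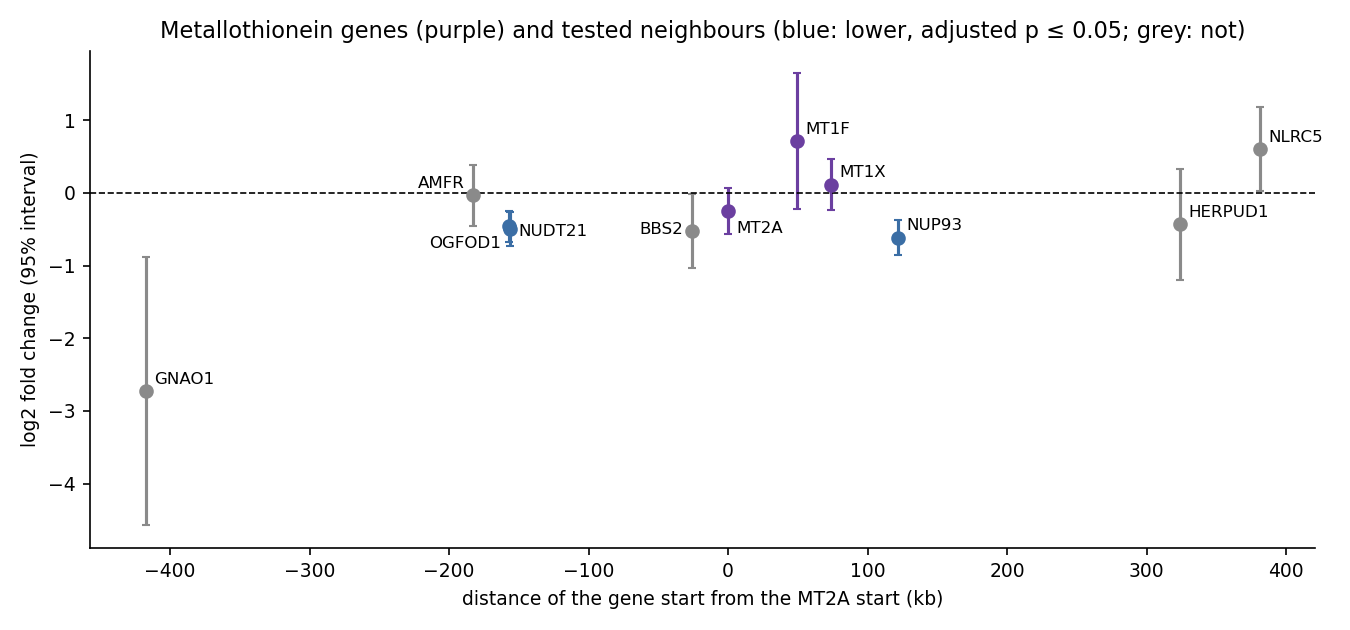
Log2 fold change of knockout against control, with 95% intervals from edgeR on all 6 libraries, by distance of the gene start from the MT2A start (kb, GRCh37). Purple marks MT2A, MT1F and MT1X, blue marks NUDT21, OGFOD1 and NUP93, which were lower at an adjusted p of at most 0.05, and grey marks neighbours that were not called.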

How the data were processed

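Poly(A) RNA was sequenced as 3 control and 3 FAM60A-knockout libraries, grouped by their labels. The authors deposited raw counts, whole numbers for each Ensembl identifier. The submitters' processing notes name STAR 2.7.10b, featureCounts 2.0.0 and hg38, the paper's methods name another quantifier, and the extraction label names hg19. The annotation release and the strand setting of the counting are not given in the sources used here.

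Counts were compared with edgeR 4.0.16 in R 4.3.3: TMM, filterByExpr with a minimum count of 10, the quasi-likelihood F-test and Benjamini-Hochberg adjustment over the 20992 genes tested, called at an adjusted p of at most 0.05. Levels are CPM scaled by TMM. Log2 CPM used a prior count of 2. For the metallothionein sum, its 22 rows were collapsed to 1 feature, and summed CPM was compared by an exact permutation test. Positions and transcripts came from GENCODE v44 lifted to GRCh37, promoters from RefSeq. In simulated knockout and control counts of 20671 genes, 194 of 200 genes changed by 3 on the log2 scale were called, with 11 false calls. The simulation gave every gene the same dispersion (spread between libraries) and no control library that stood apart, as control replicate 3 does. It therefore does not give the recovery in the real counts. Recovery of smaller changes, such as the log2 fold change of 0.71 of MT1F with all libraries, was not tested.

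The members and lists were chosen with earlier results of these data known. Named genes are the 8 members, FAM60A, up to 3 rises and 3 falls among called genes of each list, and the 3 genes most like MT2A, MTF1 and SLC30A1, of which 1 is not reported here. Alternatives were DESeq2 1.42.0, limma-voom with quantile normalization (limma 3.58.1), plain library size in place of TMM factors, no filter, a minimum of 10 counts in each library, leaving out each library, and a replicate block.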

Additional observations from a re-analysis of the deposited data

How the results depend on the processing

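Members called stayed at 0 under every alternative except leaving out control replicate 3, so that leaving out 1 library gave 0 to 3. Genes called over all genes tested went from 3491 to 5581 with DESeq2 and to 167 to 14221 with 1 library left out, lowest without knockout replicate 1 and highest without control replicate 3. Genes called in the zinc, copper, stress, hormone and neighbour lists went from 18 to 2 to 52, with the same libraries at the extremes. The log2 fold change of the metallothionein sum was -0.19 to -0.045 with 1 library left out and stayed uncalled under all 13 alternatives, the one over the 6 listed metallothionein genes included (-0.089). That of MTF1 reversed to -0.060 with library size in place of TMM, which moved the median of all genes by -0.109 and the number of called genes that rose from 1671 of 3491 to 1235 of 3903, and it was -0.15 (without control replicate 3) to 0.16 with 1 library left out. HSP90AA1 went from 0.88 to 0.24 (adjusted p = 0.159) with limma-voom and quantile normalization. The cause was not tested.

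Replicate numbers showed no pairing of the samples. After the group mean of each gene was subtracted from log2 CPM, same-numbered control and knockout libraries correlated at 0.0101, 0.0306 and -0.0362. Differently numbered pairs ran from -0.0841 to 0.0771. With a replicate block, 407 genes and 5 list genes were called, and 0 members. Depth limits MT1E, MT1G, MT1M and MT3, and 3 libraries a group limit the rest.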
